A study of Homo sapiens with 24 samples.

Results

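The Ajuba and zyxin LIM proteins are a family of 6 adaptor proteins that share a tail of LIM domains, the zinc-binding modules through which they hold on to other proteins. The genes were chosen by name, as the entries for AJUBA, LIMD1, WTIP, ZYX, LPP and TRIP6 in each gene table, which makes 6 of 58266 gene symbols. Their mRNA was measured in 24 libraries of HEK293A cells, which grow attached and derive from human embryonic kidney, kept in serum-containing DMEM and seeded without other treatment on fibronectin-coated hydrogels of 1 kPa (soft) or 40 kPa (stiff). There were 8 groups of 3 libraries, which crossed the 2 stiffnesses with 4 genotypes: wild type (WT), a line without RAP2A, RAP2B and RAP2C (RAP2A/B/C-tKO, here RAP2 tKO), a line without LATS1 and LATS2 (LATS1/2-dKO, here LATS dKO), and a line without YAP and TAZ (YAP/TAZ-dKO, here YAP/TAZ dKO). The series design text calls the 3 libraries biological replicates. The sources used here give neither the editing method nor the number of clones per line, so genotype and clone cannot be told apart. Levels are FPKM, fragment counts scaled to transcript length and library size. In the deposited hg19 tables AJUBA (ENSG00000129474.15) lies on chromosome 14 at 23440383 to 23451851, LIMD1 (ENSG00000144791.9) on chromosome 3 at 45596886 to 45727830, and WTIP (ENSG00000142279.12) on chromosome 19 at 34972543 to 35003209. ZYX (ENSG00000159840.15) lies on chromosome 7 at 143078173 to 143088204, LPP (ENSG00000145012.12) on chromosome 3 at 187871072 to 188608460, and TRIP6 (ENSG00000087077.11) on chromosome 7 at 100464760 to 100471076.

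AJUBA, LIMD1 and WTIP form the Ajuba group. These proteins sit at cell junctions and in the nucleus, and they bind the LATS kinases of the Hippo pathway, which otherwise phosphorylate the coactivators YAP and TAZ and keep them away from the TEAD transcription factors. ZYX, LPP and TRIP6 form the zyxin group, which sits at focal adhesions and actin bundles, moves there under mechanical tension, and recruits actin-assembly factors of the Ena/VASP family. TRIP6 has also been described as a binding partner of LATS kinases.

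RefSeq promoter sequences (build GRCh38.p14, 250 bases before to 50 bases after the annotated start) were matched by symbol for 5 of the 6 genes, LIMD1 being the exception. Shown are both annotated AJUBA starts and the WTIP start, since these 2 genes followed the Hippo genotypes most closely, and the TRIP6 start for comparison. All are printed 5′ to 3′ on the strand of the gene, and capitals mark the TEAD motif GGAATG (or CATTCC on the other strand) and, in TRIP6, also the AP-1 motif TGANTCA. The CArG box was searched as well, and all motifs on both strands.
AJUBA first start, chr14:22982502-22982801, minus strand: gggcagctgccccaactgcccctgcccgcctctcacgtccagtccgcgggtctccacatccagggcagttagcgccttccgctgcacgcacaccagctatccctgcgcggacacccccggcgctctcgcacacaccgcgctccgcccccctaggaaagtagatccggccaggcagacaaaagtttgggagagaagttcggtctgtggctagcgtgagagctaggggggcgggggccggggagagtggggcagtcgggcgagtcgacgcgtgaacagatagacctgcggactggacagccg
AJUBA second start, chr14:22976793-22977092, minus strand: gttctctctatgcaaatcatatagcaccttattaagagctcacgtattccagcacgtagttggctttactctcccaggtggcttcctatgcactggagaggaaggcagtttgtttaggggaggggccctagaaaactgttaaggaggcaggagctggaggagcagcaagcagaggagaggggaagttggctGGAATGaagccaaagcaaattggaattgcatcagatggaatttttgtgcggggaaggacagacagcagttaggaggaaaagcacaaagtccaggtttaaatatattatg
WTIP, chr19:34481508-34481807, plus strand: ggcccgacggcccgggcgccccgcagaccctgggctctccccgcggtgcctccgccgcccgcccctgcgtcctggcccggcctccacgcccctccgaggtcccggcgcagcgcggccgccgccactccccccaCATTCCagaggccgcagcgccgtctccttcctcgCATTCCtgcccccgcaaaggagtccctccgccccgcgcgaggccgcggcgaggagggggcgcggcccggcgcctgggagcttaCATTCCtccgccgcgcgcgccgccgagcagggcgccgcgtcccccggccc
TRIP6, chr7:100867137-100867436, plus strand: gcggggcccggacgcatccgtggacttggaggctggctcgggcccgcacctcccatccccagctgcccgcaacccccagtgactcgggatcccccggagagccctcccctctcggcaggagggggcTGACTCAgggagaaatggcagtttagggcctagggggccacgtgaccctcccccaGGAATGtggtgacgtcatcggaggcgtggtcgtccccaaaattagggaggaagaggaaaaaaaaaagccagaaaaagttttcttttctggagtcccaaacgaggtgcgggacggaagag

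The WTIP window held 3 matches to the TEAD motif, of which the farthest began 117 bases upstream of the annotated start and the nearest at the start itself. At least 3 matches occurred in 0.128% of the 35116 promoter windows in the table, and at least 1 match in 14% of them. The second AJUBA start had 1 match, 59 bases upstream, and the first AJUBA start had none of the motifs searched. The TRIP6 window had 1 TEAD match 69 bases upstream and 1 AP-1 match 124 bases upstream, the latter motif being present in 7.71% of windows. The ZYX window had no match. LPP had 7 windows, of which 2 that overlap held the same TEAD match, 3 held 1 AP-1 match each, and 1 held a CArG box, a motif present in 1.29% of windows. These matches are letters in a window and not measured binding, and the FPKM values do not separate the 2 AJUBA starts.

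The libraries held an estimated 19.99 to 42.93 M fragments, read from the widths of the deposited confidence intervals. In 2 of the 24, replicate 3 of the stiff RAP2 tKO group and replicate 1 of the stiff LATS dKO group, gene levels deviated from the group with the GC content of the gene (rank correlation across genes -0.597 and -0.568). The other 4 libraries of these 2 groups were at 0.383 to 0.536. Deviations are from the mean of the 3 libraries of a group, so 1 skewed library by itself pushes the others the opposite way. The 18 libraries of the other groups were at most 0.333 in size. ZYX and TRIP6 are GC-rich, at percentiles 94.7 and 92.1 of the tested genes, so the differences and shares of the 6 genes that rest on these 2 libraries are given with and without them, while gene lists and correlations use all libraries. The HEK293 markers KRT8, KRT18, VIM and CDH2 were at 25.2 FPKM or more in every library. Their levels were not uniform, with KRT8 at 28 to 536 and KRT18 at 45.8 to 451 FPKM. Of the immune markers, PTPRC and CD3E stayed at or below 0.0641 FPKM and CD68 was at 2.07 to 6.62 FPKM. Of the fibroblast markers, DCN was listed at 0, PDGFRB stayed at or below 0.184, COL1A1 was at 3.31 to 7.87 and COL3A1 at 0 to 11.2 FPKM. The endothelial markers CDH5 and VWF did not exceed 0.6 FPKM. Of the kidney lineage markers, PAX8 did not exceed 0.135 and PAX2 1.3 FPKM, and LHX1 was at 0.251 to 7.02 FPKM. Of the targeted genes, YAP1 was at 5.49 to 6.78 FPKM in the YAP/TAZ dKO libraries against 30 to 32.1 in WT, and LATS1 at 4.97 to 6 in the LATS dKO libraries against 11.8 to 13.9 in WT. WWTR1, which encodes TAZ, was at 8.8 to 11.5 FPKM against 23.8 to 29.3. RAP2A was at 5.76 to 7.35 FPKM in RAP2 tKO against 7.78 to 9.05 in WT, without overlap. RAP2B, RAP2C and LATS2 transcripts were not lower in the respective lines, so their levels do not check those labels.

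AJUBA had the widest range of the 6 genes. Its group means ran from 5.19 to 67.9 FPKM, a ratio of 13.1, against ratios of 5.27 for WTIP, 2.57 for LPP, 2.11 for TRIP6, 1.67 for ZYX and 1.36 for LIMD1. In WT cells AJUBA was at 7.21, 6.28 and 7.2 FPKM on soft and at 13.8, 16.6 and 16.7 FPKM on stiff gels. The groups did not overlap, and the gene rose 2.28-fold in FPKM with stiffness (log2 difference of FPKM + 1 of 1.08, SE 0.12, limma adjusted p = 0.000154). In bulk RNA, a change in the number of cells that express a gene and a change in RNA per cell cannot be told apart. AJUBA was the only family member called higher on stiff gels in WT, where 0.322% of the 15828 tested genes were called higher.

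In RAP2 tKO cells AJUBA stood at 22.7, 20.2 and 19.5 FPKM on soft and at 31.4, 34.8 and 39.4 FPKM on stiff gels. The soft RAP2 tKO libraries were all above the stiff WT libraries, whose highest value was 16.7. A rise with stiffness was called (log2 difference 0.73, SE 0.12, adjusted p = 0.00295, and 0.65 with adjusted p = 0.00774 without the GC-deviating libraries), again as the only called member, beside 0.986% of all genes called higher. In a fit to these 6 libraries alone this rise was not called (adjusted p = 0.194). The response in RAP2 tKO was not shown to differ from that in WT: the difference of the 2 log2 responses was -0.35 (95% interval -0.72 to 0.02, adjusted p = 0.748, and -0.43 without the GC-deviating libraries), and 0.0505% of all genes were called for it in either direction. No member was called for it by limma, and 1 of 6, WTIP, had an unadjusted p below 0.05, a count without its share over all genes. Against WT, AJUBA was higher by 1.46 on soft (adjusted p = 5.27e-07) and by 1.12 on stiff gels (adjusted p = 1.11e-05) on the log2 scale. Without the GC-deviating libraries the stiff difference was 1.03 (adjusted p = 4.53e-05).

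The LATS dKO line had the highest AJUBA levels, with 66.5, 66.1 and 71.1 FPKM on soft and 55.4, 64.6 and 71.6 FPKM on stiff gels. The stiffnesses overlapped there, and their log2 difference was -0.09 (95% interval -0.36 to 0.17), and 0.0033 without the GC-deviating libraries. On soft gels the LATS dKO libraries lay 3.13 above WT on the log2 scale (SE 0.12, adjusted p = 1.33e-12), from a mean of 6.9 to a mean of 67.9 FPKM. On stiff gels the difference was 1.96 (adjusted p = 1.86e-09), and 2.05 (adjusted p = 5.64e-09) without the GC-deviating libraries. The response to stiffness differed from that in WT by -1.17 (SE 0.18, adjusted p = 0.0069), in a comparison that called 0.0442% of all genes lower. Without the GC-deviating libraries it differed by -1.07 (adjusted p = 0.00959).

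YAP/TAZ dKO libraries held AJUBA at 4.94, 4.33 and 6.29 FPKM on soft and at 4.4, 5.95 and 5.76 FPKM on stiff gels. The group means were the lowest of the series, 1 soft library touching the WT range, and the stiffnesses overlapped (log2 difference 0.04, 95% interval -0.22 to 0.31). The response differed from that in WT by -1.03 (SE 0.18, adjusted p = 0.00909), where 0.133% of all genes were called lower. On stiff gels AJUBA fell by 1.4 on the log2 scale against WT (adjusted p = 6e-08). On soft gels it fell by 0.36 (adjusted p = 0.0282), a call lost in 6 of 14 alternatives, among them leaving out replicate 1 or 3 of WT or replicate 1 or 2 of YAP/TAZ dKO on 1 kPa (adjusted p up to 0.15).

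An annotated transcript, RP11-298I3.5, overlaps the AJUBA entry on chromosome 14. Its group means lay between 13.3 and 19 FPKM. It was at 15.6 FPKM in WT and at 19 FPKM in LATS dKO on soft gels, where AJUBA went from 6.9 to 67.9. The strand setting of the counting is not known here, and an exchange of fragments between the 2 entries was not tested.

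WTIP was expressed at a lower level, and from WT on soft gels upward its group means came in the same order as those of AJUBA. The lowest group was YAP/TAZ dKO on stiff gels for WTIP and on soft gels for AJUBA. In WT it was at 3.57, 3.71 and 3.19 FPKM on soft and at 5.25, 4.75 and 5.14 FPKM on stiff gels, groups that did not overlap. The log2 difference of 0.43 (95% interval 0.21 to 0.65) missed the threshold (adjusted p = 0.0573). It was called with the GC correction (0.46, adjusted p = 0.00244), without both GC-deviating libraries (0.43, adjusted p = 0.0013), with a pseudocount of 0.1 and with rescaled libraries.

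In RAP2 tKO cells WTIP was at 5.68, 5.7 and 5.76 FPKM on soft and at 6.27, 6.35 and 5.2 FPKM on stiff gels, with overlap between the stiffnesses. Its log2 response to stiffness was 0.04 there. That response differed from the one in WT by -0.39 (95% interval -0.7 to -0.08, limma adjusted p = 0.683). Over the alternatives the latter difference ranged from -0.47 to -0.28 and was never called. Against WT, WTIP was higher by 0.58 on soft gels (SE 0.1, adjusted p = 0.00165). On stiff gels the difference was 0.19 (adjusted p = 0.274), and 0.27 (adjusted p = 0.0197) without the GC-deviating libraries. LATS dKO libraries held 12.4, 11.2 and 11.3 FPKM on soft and 8.1, 11.2 and 12 FPKM on stiff gels, the highest levels of WTIP, above every library of the other genotypes.

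There WTIP was higher than in WT by 1.49 on soft (adjusted p = 5.18e-09) and by 0.9 on stiff gels (adjusted p = 4.26e-06), the latter being 1.06 (adjusted p = 2.01e-08) without the GC-deviating libraries. YAP/TAZ dKO libraries held 2.74, 3.02 and 2.36 FPKM on soft and 2.3, 2.1 and 2.23 FPKM on stiff gels, below every library of the other genotypes. WTIP fell by 0.92 against WT on stiff gels (adjusted p = 1.32e-06). On soft gels it fell by 0.28 (adjusted p = 0.0421), a call that 8 of the 14 alternatives lost. Differences of the stiffness response from WT were -0.59 in LATS dKO (adjusted p = 0.144) and -0.64 in YAP/TAZ dKO (adjusted p = 0.0786). Both were called without the GC-deviating libraries, at -0.44 (adjusted p = 0.0409) and -0.64 (adjusted p = 0.00132).

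LIMD1, the third Ajuba protein, behaved differently from AJUBA and WTIP in its levels. It was at 17.4, 17.7 and 16.1 FPKM on soft and at 18.5, 18.8 and 16.3 FPKM on stiff gels in WT. No stiffness response was called in any genotype, and the intervals of the log2 difference ran from -0.07 to 0.2 in WT and from -0.1 to 0.17 in RAP2 tKO. LATS dKO had a difference of -0.19 (95% interval -0.32 to -0.05, adjusted p = 0.2), and -0.14 without the GC-deviating libraries. RAP2 tKO libraries, at 17 to 18.2 FPKM, overlapped WT, with differences of 0.03 on soft (95% interval -0.1 to 0.16) and -0.0013 on stiff gels (-0.13 to 0.13, and a difference of -0.012 without the GC-deviating libraries).

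LATS dKO libraries held 21.5, 24.6 and 20.7 FPKM of LIMD1 on soft gels, all above WT. This was a rise of 0.36 (SE 0.06, adjusted p = 0.000367). On stiff gels the values of 18.3, 20.2 and 19.7 FPKM overlapped WT (0.11, adjusted p = 0.235, and 0.15 without the GC-deviating libraries). YAP/TAZ dKO libraries held 23.8, 23.5 and 22.4 FPKM on soft and 22.6, 22.1 and 23.4 FPKM on stiff gels, above every WT library, with rises of 0.43 (adjusted p = 3.19e-05) and 0.33 (adjusted p = 0.000422). With all libraries LIMD1 was the only member called higher in the YAP/TAZ dKO line, at both stiffnesses.

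**Figure D1:**
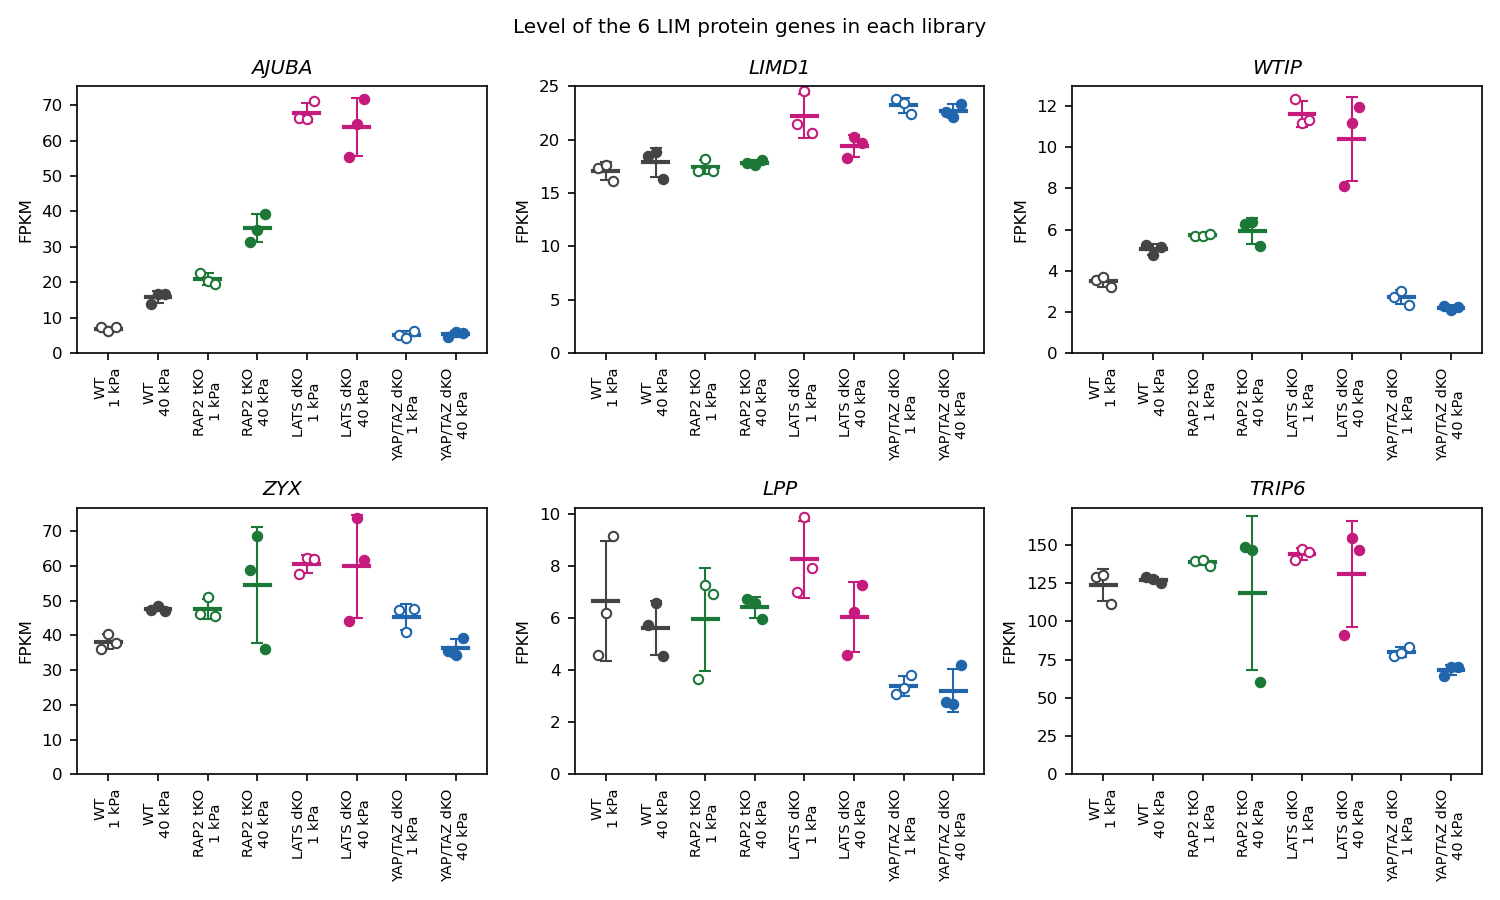
FPKM of each gene (y axes start at 0) in the 24 libraries, by genotype and stiffness (open circles 1 kPa, filled circles 40 kPa), where horizontal bars are means and whiskers are SD over 3 libraries; AJUBA reaches 66.1 to 71.1 FPKM in LATS dKO on soft gels and stays between 4.33 and 6.29 in YAP/TAZ dKO.

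ZYX, the founding member of the zyxin group, was at 36.2, 40.4 and 37.9 FPKM on soft and at 47.4, 48.6 and 47.1 FPKM on stiff gels in WT. The groups did not overlap, but the log2 difference of 0.32 was not called (95% interval -0.05 to 0.68, adjusted p = 0.505). Without both GC-deviating libraries the same difference was called (SE 0.08 in place of 0.17, adjusted p = 0.0272), as it was with the GC correction (0.39, adjusted p = 0.00741). In RAP2 tKO cells ZYX was at 46.2, 50.9 and 45.6 FPKM on soft and at 58.7, 68.7 and 36.2 FPKM on stiff gels, the last value being that of a GC-deviating library. With all libraries the rise was 0.15 (adjusted p = 0.64), and without the GC-deviating ones 0.41 (adjusted p = 0.0125).

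LATS dKO libraries held 57.7, 62.2 and 62 FPKM of ZYX on soft gels, all above the soft WT libraries. This rise of 0.65 (SE 0.17, adjusted p = 0.0107) was the only call for ZYX with all libraries. On stiff gels the values were 44.3, 73.8 and 61.7 FPKM, the first from the other GC-deviating library. The difference from WT was 0.29 (adjusted p = 0.259) with it and 0.49 (adjusted p = 0.000453) without both. Levels of ZYX in YAP/TAZ dKO were 47.3, 41 and 47.6 FPKM on soft and at 35.6, 34.2 and 39.1 FPKM on stiff gels.

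The stiff YAP/TAZ dKO libraries were all below the stiff WT libraries, and the difference of -0.39 was not called (adjusted p = 0.0902). It was called without the GC-deviating libraries (adjusted p = 0.000608). On soft gels ZYX was 0.24 higher than in WT (adjusted p = 0.305), and called only in 2 alternatives. The stiffness response differed from that in WT by -0.63 (adjusted p = 0.425), and by the same amount with adjusted p = 0.0061 without the GC-deviating libraries. Those libraries left out, ZYX was also called lower on stiff gels within YAP/TAZ dKO (-0.31, adjusted p = 0.0486) and higher in RAP2 tKO than in WT (0.31 on soft and 0.41 on stiff gels).

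TRIP6 was the most abundant of the 6 genes in FPKM. In WT it was at 129, 130 and 112 FPKM on soft and at 129, 127 and 125 FPKM on stiff gels, with overlap (log2 difference 0.04, 95% interval -0.45 to 0.54). RAP2 tKO libraries held 139, 140 and 136 FPKM on soft and 149, 146 and 60.3 FPKM on stiff gels. The last value, from the GC-deviating replicate 3, decided the sign of the difference from WT on stiff gels. That difference was -0.21 (adjusted p = 0.631) with the 2 GC-deviating libraries and 0.21 (adjusted p = 0.018) without them.

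LATS dKO libraries held 140, 147 and 145 FPKM of TRIP6 on soft and 90.9, 154 and 147 FPKM on stiff gels. The differences from WT were 0.22 (adjusted p = 0.565) and 0.0014 (adjusted p = 1). Without the GC-deviating libraries they were 0.22 (adjusted p = 0.00237) and 0.24 (adjusted p = 0.00356). YAP/TAZ dKO libraries held 77.4, 79.1 and 83.4 FPKM on soft and 64.4, 69.9 and 70.2 FPKM on stiff gels, below every WT library. The stiff libraries of this line lay below its soft ones, with a log2 difference of -0.23 (limma adjusted p = 0.894). That difference was called without the GC-deviating libraries (adjusted p = 0.0255). Against WT, TRIP6 fell by 0.62 on soft (SE 0.24, adjusted p = 0.0456) and by 0.89 on stiff gels (adjusted p = 0.00578). The soft call was lost when any 1 of the 6 libraries compared was left out, with adjusted p up to 0.112, and held without the GC-deviating libraries (adjusted p = 3.18e-08).

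LPP had the least precise values, since the deposited intervals spanned a median of 30.1% to either side of the estimate, against 4.09% for TRIP6 and 21.9% for WTIP. In WT it was at 4.6, 6.18 and 9.13 FPKM on soft and at 5.74, 6.59 and 4.53 FPKM on stiff gels, with overlap. RAP2 tKO libraries ranged from 3.68 to 7.27 and LATS dKO libraries from 4.59 to 9.86 FPKM, both overlapping WT. YAP/TAZ dKO libraries held 3.07, 3.3 and 3.83 FPKM on soft and 2.76, 2.7 and 4.18 FPKM on stiff gels. All 6 were below the lowest WT library at the same stiffness, and LPP fell by 0.76 (SE 0.23, adjusted p = 0.0129) and by 0.66 (adjusted p = 0.0283). The soft call was lost without WT on 1 kPa replicate 3 (adjusted p = 0.091), and the stiff call in 5 of 14 alternatives.

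Over the family, 2 of 6 genes were higher in the RAP2 tKO line than in WT on soft gels (AJUBA and WTIP, where 2.91% of all genes were called higher) and 1 of 6 on stiff gels (AJUBA, beside 3.78%). In LATS dKO, 4 of 6 were higher on soft gels (AJUBA, WTIP, ZYX and LIMD1) and 2 of 6 on stiff gels (AJUBA and WTIP), where 10.5% of all genes were called higher at either stiffness. In YAP/TAZ dKO, 4 of 6 were lower (AJUBA, WTIP, LPP and TRIP6) and 1 was higher (LIMD1) at each stiffness. Of all genes, 22.2% were called lower and 15.8% higher on soft gels, and 19.8% and 17.9% on stiff gels. The soft count is the less firm. Of 14 alternatives, the soft call was lost in 6 for AJUBA, 8 for WTIP, 8 for TRIP6 and 1 for LPP. On stiff gels only the LPP call was lost, in 5 of 14. With all libraries no member was called for stiffness within LATS dKO, where 0.708% of all genes were called in either direction, or within YAP/TAZ dKO (0.347%). By limma's unadjusted p below 0.05 these counts were 1 and 0 of 6. Without the GC-deviating libraries 4 of 6 were called in RAP2 tKO against WT at each stiffness and 4 in LATS dKO on stiff gels. In that fit ZYX and TRIP6 were called lower with stiffness within YAP/TAZ dKO. Shares of all genes for that unadjusted threshold and that fit are not given here, so these counts have no background beside them. The comparisons of the 3 lines with WT share the WT libraries.

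**Figure D2:**
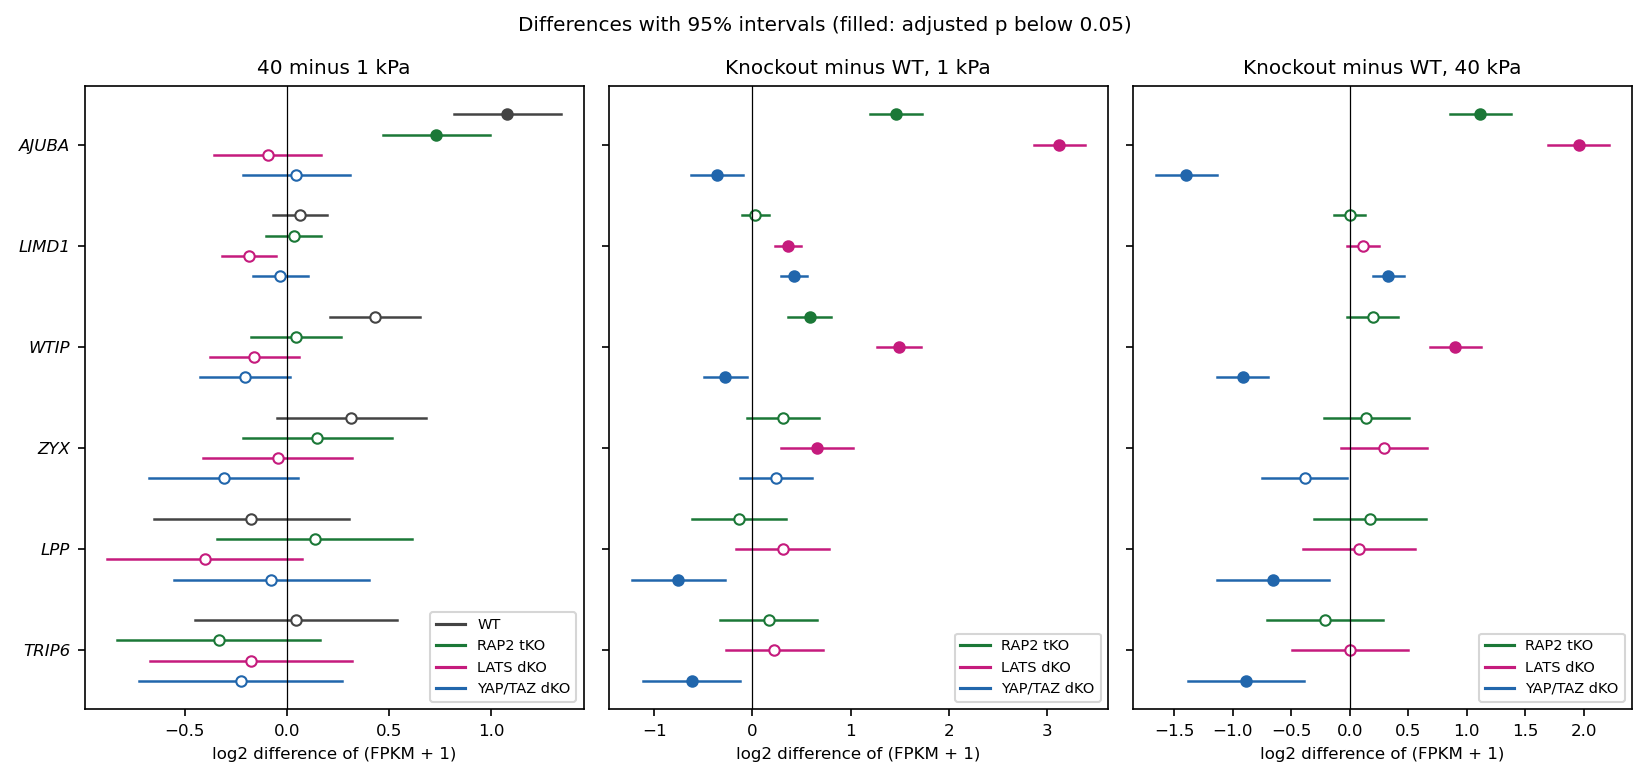
Log2 differences of FPKM + 1 (x axes) with 95% intervals for each gene, between stiffnesses within each genotype (left) and between each knockout line and WT on 1 kPa (middle) and 40 kPa (right); filled circles have an adjusted p below 0.05. AJUBA is called in every comparison with WT, at 3.13 in LATS dKO and -0.36 in YAP/TAZ dKO on soft gels. The latter call was lost in 6 of 14 alternatives.

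The composition of the family changed with genotype. The FPKM of the 6 genes summed to 196 ± 9.83 (SD, n = 3) in WT on soft gels, to 315 ± 8.83 in LATS dKO and to 160 ± 5.87 in YAP/TAZ dKO. AJUBA made up 3.53% ± 0.42 of that sum in WT on soft gels, 7.17% ± 0.79 in WT on stiff gels, and 21.6% ± 0.91 in LATS dKO on soft gels. In RAP2 tKO on stiff gels the share was 16% ± 6.83, and 12% without the GC-deviating replicate. The ratio of AJUBA to LIMD1 was 0.41 ± 0.046 in WT and 3.08 ± 0.38 in LATS dKO on soft gels. In YAP/TAZ dKO on soft gels it was 0.22 ± 0.05, so LIMD1 exceeded AJUBA there as in WT on soft gels. AJUBA exceeded LIMD1 in LATS dKO and also in RAP2 tKO. In RAP2 tKO the ratio was 1.19 ± 0.12 on soft and 1.97 ± 0.2 on stiff gels. In WT on stiff gels it was 0.88 ± 0.14, with libraries from 0.74 to 1.02. TRIP6 held the largest share in all 8 groups, between 44.6% and 63%. Without the GC-deviating libraries its share was 46.3% in LATS dKO and 53.7% in RAP2 tKO on stiff gels.

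**Figure D3:**
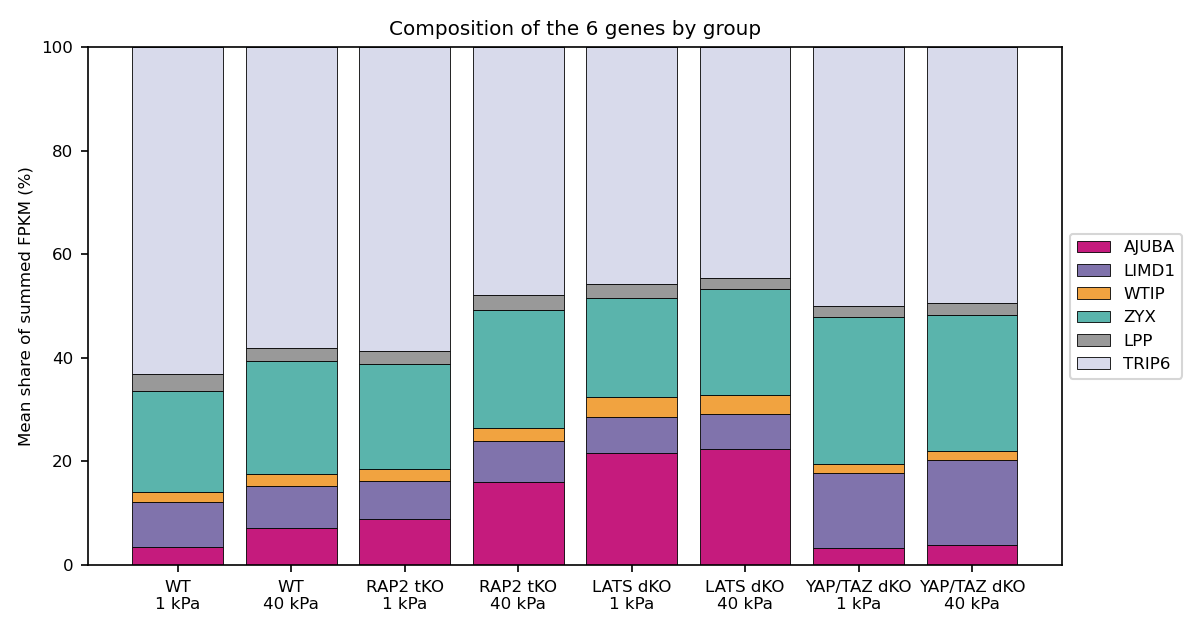
Mean share of each gene in the summed FPKM of the 6 genes (stacked bars, y axis in percent) by group, 3 libraries each. The AJUBA share is 3.53% in WT and 21.6% in LATS dKO on soft gels, and the LIMD1 share is 16.5% in YAP/TAZ dKO on stiff gels.

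Tested genes within 5 Mb on the same chromosome were examined beside each member. In the YAP/TAZ dKO line the 52 neighbours of LPP had a median log2 difference from WT of -0.63 on soft and -0.52 on stiff gels, close to the -0.76 and -0.66 of LPP itself, and 16 of them lay below it at each stiffness. The 119 neighbours of TRIP6 had medians of -0.42 and -0.39, against -0.62 and -0.89 for TRIP6. The neighbourhoods of LPP and TRIP6 were thus lower as a whole, and the part of this in the fall of the 2 genes was not tested. The neighbours of AJUBA (98 genes) had medians of 0.11 and 0.1, and those of WTIP (153 genes) 0.07 and 0.05. On stiff gels 1 neighbour of each lay below the gene itself. LIMD1's 126 neighbours had medians of 0.13 and 0.15, against 0.43 and 0.33 for LIMD1. In LATS dKO on soft gels none of the 98 neighbours of AJUBA and none of the 153 of WTIP reached the difference of the gene.

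**Figure D4:**
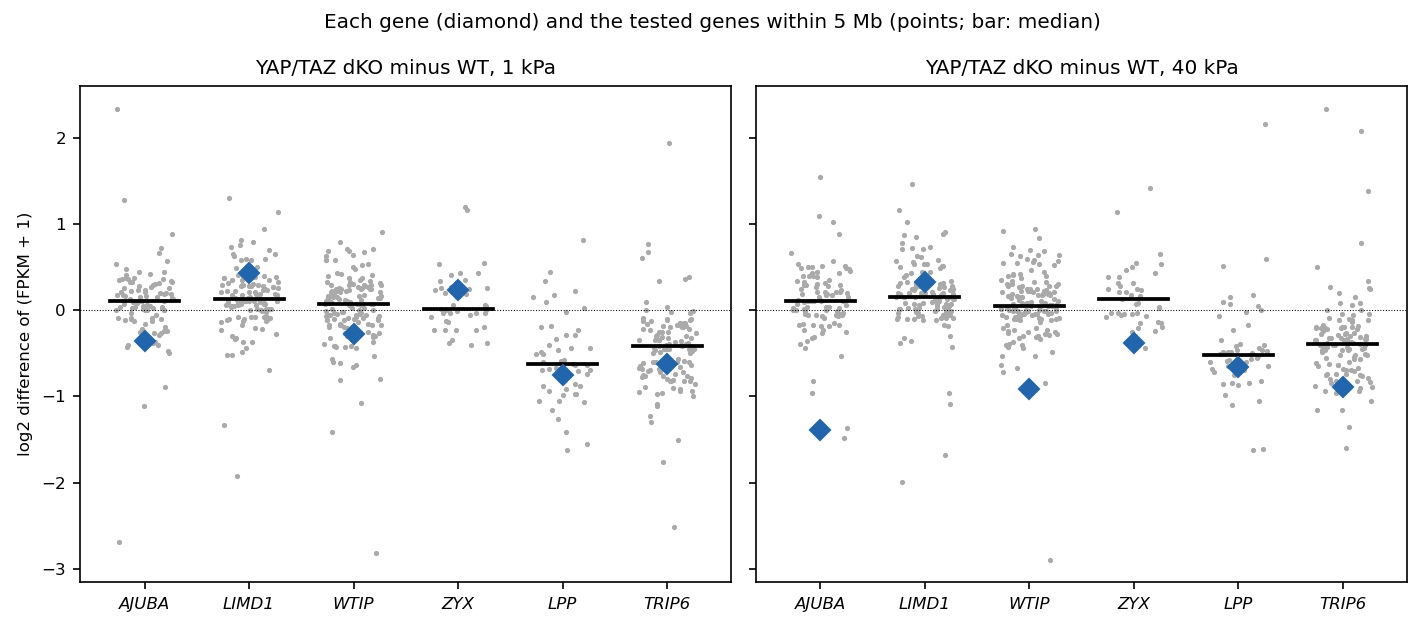
Log2 difference between YAP/TAZ dKO and WT (y axis) for each gene (diamond) and the tested genes within 5 Mb of it (grey points, spread sideways at random, with the median as a bar) on 1 kPa (left) and 40 kPa (right). The medians around LPP (-0.63 and -0.52) and TRIP6 (-0.42 and -0.39) lie below 0, and those around the other 4 genes between 0.02 and 0.15.

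Other genes of the pathway were taken from lists. Of 19 tested targets of YAP, TAZ and TEAD, 4 rose with stiffness in WT (median log2 difference 0.16, over all tested genes -0.03). These included CTGF, a secreted matrix-associated protein (from 6.55 to 22.5 FPKM), and ANKRD1, a nuclear ankyrin-repeat protein (from 0.877 to 4.02 FPKM). Of all tested genes, 0.322% were called higher with stiffness in WT. In LATS dKO 14 of the 19 were higher and 1 lower at each stiffness, with medians of 0.88 and 0.82. Of all genes, 10.5% were higher there at each stiffness, and 11.3% lower on soft and 11.8% lower on stiff gels. The YAP/TAZ dKO line had 10 lower and 2 higher on soft gels, and 12 lower and 1 higher on stiff gels. Of all genes, 22.2% were lower and 15.8% higher there on soft gels, and 19.8% and 17.9% on stiff gels. Among the lower targets was CYR61, a secreted relative of CTGF, at 4.82 against 14.8 FPKM on soft gels. FOXF2, a forkhead transcription factor, was higher there, at 20.5 against 10.8 FPKM on soft gels.

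Of 30 Hippo pathway genes, which share AMOTL2, LATS2 and PTPN14 with the targets, 1 rose with stiffness in WT, beside 0.322% of all genes. It was AMOTL2, an angiomotin that binds YAP at junctions (9.18 to 25.4 FPKM, adjusted p = 0.000979). In LATS dKO 7 of 30 were higher and 3 lower on soft gels, beside 10.5% and 11.3% of all genes. The lower ones include LATS1, itself a targeted gene (5.18 against 12.9 FPKM). TEAD1, a DNA-binding partner of YAP, was at 32.4 against 17.5 FPKM. In YAP/TAZ dKO 3 were higher and 10 lower on soft gels and 5 higher and 15 lower on stiff gels. Of all genes, 15.8% were higher and 22.2% lower on soft gels, and 17.9% and 19.8% on stiff gels. The lower genes of the list include the targeted YAP1 and WWTR1 at both stiffnesses, so these counts do not stand apart from the genotype. TEAD1 was at 11.1 against 17.5 FPKM on soft gels. The list medians there, YAP1 and WWTR1 included, were -0.06 and -0.19, beside -0.01 and 0.01 over all tested genes.

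Of 27 focal adhesion and actin partners of zyxin, none was called with stiffness in WT by limma (5 had an unadjusted p below 0.05). The share of all genes at that unadjusted threshold is not given here. In YAP/TAZ dKO 22.2% of all genes were lower and 15.8% higher on soft gels, and 19.8% and 17.9% on stiff gels. Of the 27 partners, 13 were lower and 3 higher there on soft gels, and 15 lower and 2 higher on stiff gels. The list medians were -0.18 and -0.3. The lower genes included CSRP1, a LIM protein of actin bundles (27.5 against 64.7 FPKM on soft gels), ACTN1, an actin crosslinker that binds zyxin (40.3 against 72.2), and TES, a LIM protein that binds zyxin (19.6 against 39.4). In LATS dKO 10.5% of all genes were higher at each stiffness, and 11.3% lower on soft and 11.8% lower on stiff gels. Of the 27 partners, 8 were higher and none lower there on soft gels. The higher ones included the actin crosslinker FLNA (461 against 199 FPKM) and the LIM protein FHL2 (26.1 against 14.9). On stiff gels 7 were higher and 3 lower (median 0.05), the lower ones including TES (33.2 against 45.8 FPKM) and VASP, an Ena/VASP protein that zyxin binds (32.9 against 46.2).

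Of 13 tested adherens junction partners, 4 were higher and 3 lower in LATS dKO on soft gels, 3 higher and 2 lower on stiff gels, and 2 higher and 4 lower in YAP/TAZ dKO at each stiffness. Over all tested genes, 10.5% were called higher in LATS dKO at each stiffness, and 11.3% lower on soft and 11.8% lower on stiff gels, beside the shares given above for YAP/TAZ dKO. CTNNA1, alpha-catenin, was at 408 FPKM in LATS dKO, 295 in WT and 166 in YAP/TAZ dKO on soft gels. Of 37 other tested LIM domain genes, 12 were higher and 9 lower in YAP/TAZ dKO on soft gels (median 0.09) and 11 higher and 12 lower on stiff gels (median 0.08), beside 15.8% higher and 22.2% lower of all genes on soft and 17.9% and 19.8% on stiff gels. In LATS dKO 11 were higher and 5 lower on soft gels, and 11 higher and 7 lower on stiff gels. The LIM list shares genes with the partners of zyxin, among them CSRP1, TES and FHL2. The adherens junction list shares VCL with those partners, so the counts of these lists are not separate. LASP1, an actin-binding LIM protein, was called with stiffness in WT, from 26.3 to 30.5 FPKM (log2 difference 0.2, adjusted p = 0.027).

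Profiles over the 24 libraries were compared by Pearson correlation of log2(FPKM + 1), a description in which all genes share the same libraries and groups. The 8 genes most like AJUBA were ANKRD1 (r = 0.98), EZR, GPRC5A, ITGB8, GPC5, SAMD4A, CYR61 and CNN2 (r = 0.967 for the last). WTIP had r = 0.959 with AJUBA, and was most like CNN2 (r = 0.991), an actin-binding calponin. Within the family, AJUBA had r = 0.74 with ZYX, 0.642 with LPP, 0.575 with TRIP6 and -0.16 with LIMD1. Over the 8 group means these were 0.926, 0.765, 0.706 and -0.166. All these values include the GC-deviating libraries, whose part in the likeness of ZYX and TRIP6 to other genes was not tested. The genes most like ZYX were ACTB (r = 0.908), IMP4 and EEF2KMT, and those most like TRIP6 were PUS1 (r = 0.982), RITA1 and GAL. LPP was most like PLBD2 (r = 0.885), SYNJ2 and KLF8, and LIMD1 most like DTX4 (r = 0.907), TMEM98 and KCNC4-AS1.

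**Figure D5:**
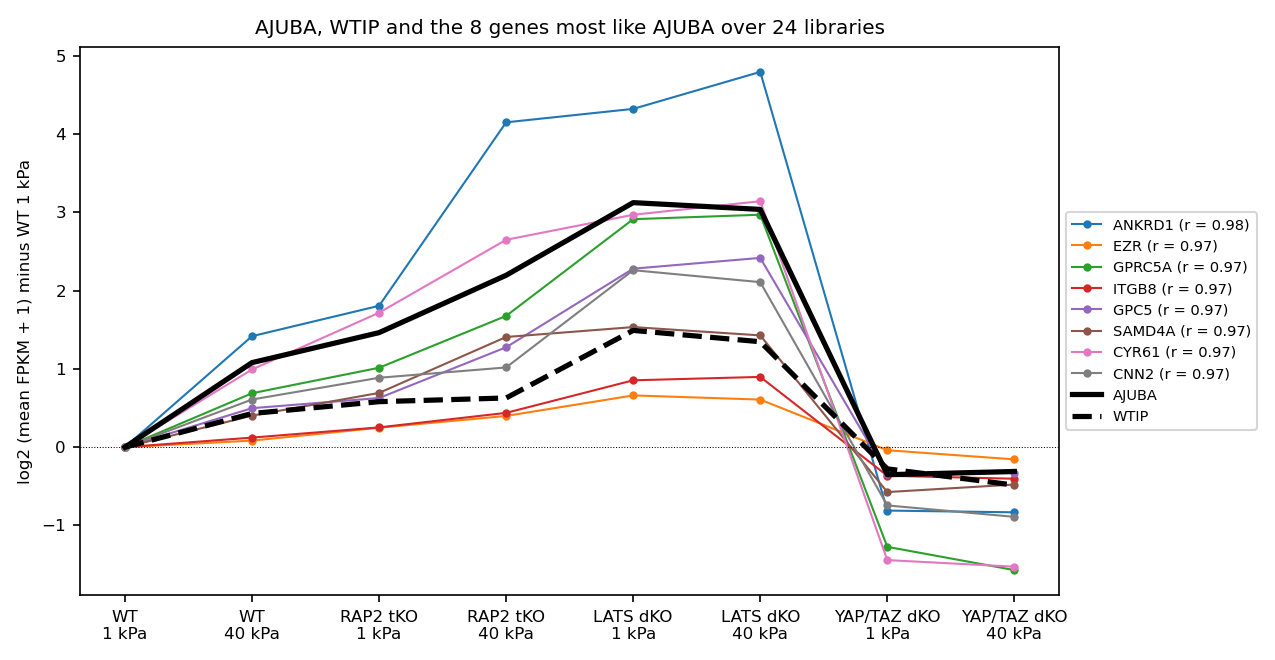
Log2 of mean FPKM + 1 in each group minus that in WT on 1 kPa (y axis) for AJUBA (solid black), WTIP (dashed black) and the 8 genes most like AJUBA (colours, with r over 24 libraries). ANKRD1 goes from 0.877 FPKM in WT to 36.6 in LATS dKO on soft gels, and all 10 genes are at or below their WT soft level in YAP/TAZ dKO.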

How the data were processed

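Messenger RNA of 24 HEK293A libraries was sequenced after stranded poly(A) library preparation with index set A or B, and the sources used here do not assign the sets to libraries. Deposited by the authors was 1 table of FPKM values per library, made with STAR 2.4.2a and Cufflinks 2.2.1 on hg19, per the submitters' processing notes; each table also gives a status and a confidence interval, per the file headers. All 144 values of the 6 genes had the status OK. FPKM values hold no counts, so no count model was used, and the depth was read from interval widths.

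Of 60350 entries, 338 symbols stood on several entries and were summed, and 92 symbols with a failed status were left out. Tested were 15828 genes (FPKM of 1 or more in 3 or more libraries), on log2(FPKM + 1), a scale that understates the change of low genes. The limma package 3.58.1 (R 4.3.3) estimated a mean for each group from all 24 libraries, with a mean-dependent prior of the spread (16 residual degrees of freedom). Tests were two-sided, with Benjamini-Hochberg adjustment over all genes within each of 13 comparisons, and genes with an adjusted p below 0.05 were called. P-values measure the spread between these libraries. GC content came from the longest GENCODE transcript, for 98% of tested genes and all 6 members. The procedure was tested on simulated data.

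Named genes were the 6 members, up to 4 called genes with the smallest p per list and comparison, and the genes with the highest correlation to each member (8 for AJUBA, 3 for the others). The members and lists were chosen with earlier results of these data known. The alternatives were a pseudocount of 0.1, no filter, rescaled libraries, a GC correction, a replicate block, a fit to the compared groups alone, no trend, and leaving out libraries.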

Additional observations from a re-analysis of the deposited data

Results flagged for a closer look

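The response of AJUBA to stiffness differed between genotypes by a test of the difference itself. In LATS dKO it was lower than in WT on the log2 scale (a difference of -1.17, limma adjusted p = 0.0069), with overlapping soft and stiff libraries in LATS dKO and none in WT. In YAP/TAZ dKO the difference was -1.03 (limma adjusted p = 0.00909), at levels between 4.33 and 6.29 FPKM. Over the alternatives the 2 differences ranged from -1.27 to -1.07 and from -1.13 to -0.91, and both were called in all 20.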

How the results depend on the processing

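Of 78 log2 differences (6 genes in 13 comparisons), 23 were called, 17 of them in every alternative and 6 not in some. None of the 23 changed sign. Of the 55 not called, 18 were called in some alternative.

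The number of members called moved by over 1.5 times as follows. For stiffness in WT it went from 1 to 2 with a pseudocount of 0.1 or rescaled libraries and to 3 with the GC correction or without both GC-deviating libraries. For stiffness in RAP2 tKO it went from 1 to 2 in the latter 2 settings and to 0 in a fit to the compared groups alone. For stiffness in YAP/TAZ dKO it went from 0 to 2 without the GC-deviating libraries. For the LATS dKO interaction it went from 1 to 2 with the GC correction and without those libraries, and lay between 1 and 2 when 1 library was left out. For the YAP/TAZ dKO interaction it went from 1 to 2 with a pseudocount of 0.1, and to 3 with the GC correction, without the GC-deviating libraries, or in the compared groups alone. Without those libraries it was 4 for RAP2 tKO against WT at each stiffness (from 2 and 1; 3 on 40 kPa with the GC correction) and 4 for LATS dKO on 40 kPa (from 2). For YAP/TAZ dKO on 1 kPa it went from 5 to 2 without the filter and to 3 with rescaled libraries, and lay between 2 and 3 with 1 library left out. Smaller moves included those from 4 to 5 for LATS dKO on 1 kPa and from 2 to 3 for LATS dKO on 40 kPa with the GC correction, and from 5 to 6 (GC correction, without the GC-deviating libraries, compared groups alone) or 4 (no filter, or without any 1 of 4 libraries) for YAP/TAZ dKO on 40 kPa. The cause of these moves was not tested, and the share of all genes called in each alternative is not given here.

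Signs changed in differences that were not called. Without both GC-deviating libraries TRIP6 became 0.091 for stiffness in RAP2 tKO, 0.063 in LATS dKO, 0.048 and 0.020 in the RAP2 tKO and LATS dKO interactions, and 0.21 for RAP2 tKO against WT on 40 kPa, while ZYX became 0.15 for stiffness in LATS dKO and 0.097 in the RAP2 tKO interaction, and AJUBA 0.0033 for stiffness in LATS dKO. With the GC correction ZYX became 0.037 for stiffness in LATS dKO and 0.12 in the RAP2 tKO interaction, and LPP -0.0032 for LATS dKO against WT on 40 kPa.

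With 1 library left out at a time, the range for stiffness in WT was -0.38 to 0.051 for LPP and -0.028 to 0.082 for TRIP6. In RAP2 tKO it was -0.00078 to 0.12 for WTIP, -0.041 to 0.41 for ZYX, -0.13 to 0.28 for LPP and -0.55 to 0.091 for TRIP6. In LATS dKO it was -0.18 to 0.0033 for AJUBA, -0.21 to 0.15 for ZYX and -0.32 to 0.063 for TRIP6, and in YAP/TAZ dKO -0.056 to 0.17 for AJUBA and -0.23 to 0.0088 for LPP. For the RAP2 tKO interaction it was -0.093 to 0.0058 for LIMD1, -0.36 to 0.097 for ZYX and -0.597 to 0.048 for TRIP6, for the LATS dKO interaction -0.36 to 0.020 for TRIP6, and for the YAP/TAZ dKO interaction -0.13 to 0.301 for LPP. For RAP2 tKO against WT it was -0.0071 to 0.056 for LIMD1 and -0.34 to 0.13 for LPP on 1 kPa, and -0.062 to 0.034 for LIMD1, -0.046 to 0.41 for ZYX and -0.43 to 0.21 for TRIP6 on 40 kPa. For LATS dKO on 40 kPa it was -0.046 to 0.24 for LPP and -0.14 to 0.24 for TRIP6.

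Libraries with the same replicate number did not deviate together over all genes (correlations of -0.154 to 0.0835). These correlations showed no pairing by number, but they cannot exclude a small shared effect or one limited to some genes. The replicate block lost 1 call of a member, WTIP in YAP/TAZ dKO against WT on 1 kPa (-0.28, adjusted p = 0.054). The interval widths limit LPP and WTIP most.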
